A study of Mus musculus with 23 samples.

Results

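The comparison described here set normal calf muscle against normal fat of the same mouse stock. It used 8 of the 23 RNA sequencing libraries of a mouse series on BubR1, the mitotic checkpoint kinase encoded by Bub1b: the 4 of wild-type (WT) gastrocnemius and the 4 of WT fat, chosen by their labels alone. All WT mice were of a mixed 129Sve and C57BL/6 background and 8 to 10 months old, carried no Bub1b mutation and received no treatment that the labels name. The fat is labelled IAT, an abbreviation that the labels do not spell out. Muscle RNA was extracted with a kit for fibrous tissue and fat RNA with a kit for lipid tissue, so the kit and the tissue cannot be told apart. The labels do not say whether the numbers 1 to 4 of the muscle and fat libraries are the same mice, nor do they give sex. The other 15 libraries, muscle and fat of BubR1H/L1002P mice (labelled HL1002P) and BubR1H/H mice (labelled HH), enter only where the same contrast is repeated within them.

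Gastrocnemius is a limb muscle of multinucleate fibres that shorten when myosin heads of the thick filament pull on actin of the thin filament, released by calcium and paid for by ATP. White fat stores triglyceride in single large droplets inside adipocytes, makes fatty acids, releases them on adrenergic signals and secretes hormones such as leptin and adiponectin. Many enzymes that every cell needs exist as paralogues, of which muscle uses its own form, and much of what follows is about such pairs.

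Counts are given as CPM, counts per 1000000 of the library, on totals scaled between libraries by the trimmed mean of M values (TMM), and always in the order of libraries 1, 2, 3 and 4. A log2 difference is muscle minus fat from edgeR's quasi-likelihood fit, so negative values mean a higher level in fat. The standard error (SE) beside it is approximate, as the fit reports none. It was derived from the test, as the size of the difference divided by the square root of the F statistic. A gene is said to be higher in a tissue where the Benjamini-Hochberg adjusted p of that test was under 0.05 over all genes tested, and to pass the 4-fold test where the same held against a null difference of 4-fold.

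Markers of each labelled tissue were high in its own libraries. The 10 muscle fibre markers summed to 348900, 250600, 314200 and 319300 CPM in the muscle libraries and to 951, 178, 10950 and 474 CPM in the fat libraries. The 10 fat cell markers summed to 14180, 14520, 7162 and 8881 CPM in the fat libraries and to 282, 597, 644 and 298 CPM in the muscle libraries. Each tissue thus held markers of the other at a low level, and fat 3 held by far the most muscle transcripts. Fat 3 and fat 4 also carried keratins and other epithelial genes that were near 0 in fat 1 and 2, and fat 1 had few lymphocyte transcripts. In muscle, library 1 was low in slow fibre transcripts, at a summed 2581 CPM against 15380 to 19080 CPM in the other 3. Libraries 1 and 2 of either tissue carried Y-linked transcripts and libraries 3 and 4 carried Xist, so the epithelial split in fat coincides with that mark and the effects cannot be told apart. Where leaving out one of these libraries moves a difference by over 1.5 times, the value without it is given beside it.

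The 8 libraries held 37631066 to 58828571 counts over 24062 genes. In muscle the 10 most abundant genes together made up 21.6% to 26.9% of a library, but in fat 5.85% to 8.93%. Of 15198 genes with enough counts to test, 5124 were higher in muscle (33.7% of those tested) and 6145 were higher in fat (40.4%). The 4-fold test was passed by 1098 genes in muscle (7.22%) and by 1398 in fat (9.20%). The split depends on the scaling. On unscaled library totals, where the median log2 difference of all genes shifted from -0.19 to -1.36, 1980 genes were higher in muscle and 10708 in fat. Directions given for genes with log2 differences between 0 and about 1.17 therefore hold relative to the bulk of genes and not per count of RNA, and for lists whose counts move with it the counts on unscaled totals are given too. Those list counts are to be read against the 1980 and 10708 of all 15198 genes on that scale. Within a tissue the biological coefficient of variation was 0.202 in muscle and 0.368 in fat.

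Among the lists of cell processes, the thick filament, calcium handling, thin filament and Z disc lists had the largest medians, at 7.06, 6.80, 6.54 and 6.33. All 24 thick filament genes tested were higher in muscle and 22 passed the 4-fold test, with a median log2 difference of 7.06 against -0.19 over all genes. Myh4, the heavy chain of fast IIb fibres, was at 89690, 59640, 74930 and 70660 CPM in muscle and at 156, 16.6, 2343 and 102 CPM in fat. Every muscle library stood far above every fat library, yet fat 3 stood far above the other fat libraries. The log2 difference of Myh4 was 6.81, SE 1.65 with an edgeR adjusted p of 0.0047, and without fat 3 it was 9.67. Whether fewer fibres or less RNA per fibre lie behind a level in a bulk sample cannot be told apart here.

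Of the 21 thin filament genes 20 were higher in muscle, 19 of them past 4-fold. Acta1, skeletal muscle actin, stood at 61630, 49080, 58840 and 64070 CPM in muscle against 224, 62.6, 2066 and 98.6 CPM in fat, a log2 difference of 6.57, SE 1.37 (edgeR adjusted p 0.0021) that became 8.84 without fat 3. Tropomyosin Tpm1 and the fast troponins Tnnt3, Tnnc2 and Tnni2, which gate the filament by calcium, differed by 6.54, SE 1.13, 6.33, SE 1.45, 6.58, SE 1.35 and 6.35, SE 1.32. Without fat 3 these became 8.22, 8.94, 8.90 and 8.68. The exception was Tnni3, cardiac troponin I, which was low everywhere but higher in fat, at 0.152 to 0.508 CPM in muscle and 1.56 to 3.90 CPM in fat.

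The Z disc, which anchors the filaments, and the costamere, which ties it to the membrane, followed with 38 of 40 genes higher in muscle and 37 past 4-fold. Actn3, the alpha actinin of fast fibres, was at 10830 to 16820 CPM in muscle and 3.83 to 653 CPM in fat. Desmin, the muscle intermediate filament encoded by Des, and telethonin, the titin cap encoded by Tcap, differed by 6.41, SE 0.89 and 7.33, SE 1.25, and by 7.75 and 9.24 without fat 3. Sgcd, delta sarcoglycan, was the sole member higher in fat (log2 difference -1.20, SE 0.40, edgeR adjusted p 0.0214), with groups that overlapped because fat 3 and fat 4 were as low as muscle 2. The call ended when any of 5 of the 8 libraries was left out (adjusted p 0.052 to 0.069).

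Calcium handling had 25 of 26 members higher in muscle, 23 past 4-fold. Without fat 3 the genes higher in muscle in these 4 lists still numbered 24, 20, 38 and 25. Atp2a1, the calcium pump of fast fibres, reached 55910, 41740, 56140 and 55600 CPM in muscle and 114, 11.6, 1440 and 57.9 CPM in fat. Parvalbumin (Pvalb), a calcium buffer of fast fibres, and Ryr1, the calcium release channel, differed by 6.35, SE 1.34 and 7.59, SE 1.31, and by 8.70 and 9.85 without fat 3. Fkbp1a, a small protein that binds that channel and is made in most cells, was the member that did not pass and was named for that, at 171 to 199 CPM in muscle and 120.2 to 198 CPM in fat.

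Since these genes moved together, the 250 bases before the start sites of a few are shown, from RefSeq on GRCm38.p6, read 5′ to 3′ on the gene's own strand. Chosen after their matches and values were seen, they are Xirp2 and Klhl41, Z disc and sarcomere genes with a MEF2 motif, Myh4 and Acta1, which carry the CArG box, Lep and Plin1 from the fat side, which carry TTGCNNAA, and Ckb, the non-muscle creatine kinase, which carries a MEF2 match although it was higher in fat. Capitals mark matches to the motifs searched on both strands, which are MEF2, the CArG box, the E-box CAGCTG, the TATA form TATAAA and the C/EBP form TTGCNNAA. The MEF2 match begins 74 bases before the start in Xirp2 and 63 in Klhl41, and the CArG match 104 in Myh4 and 73 in Acta1. In Myh4 the CArG match overlaps a TTGCNNAA match, and in Ckb the MEF2 match overlaps a TATAAA match.
Xirp2: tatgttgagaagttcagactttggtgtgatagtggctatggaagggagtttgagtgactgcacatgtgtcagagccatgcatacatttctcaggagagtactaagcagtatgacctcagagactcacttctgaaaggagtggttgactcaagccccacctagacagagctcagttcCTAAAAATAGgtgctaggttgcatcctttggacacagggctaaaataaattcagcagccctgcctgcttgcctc
Klhl41: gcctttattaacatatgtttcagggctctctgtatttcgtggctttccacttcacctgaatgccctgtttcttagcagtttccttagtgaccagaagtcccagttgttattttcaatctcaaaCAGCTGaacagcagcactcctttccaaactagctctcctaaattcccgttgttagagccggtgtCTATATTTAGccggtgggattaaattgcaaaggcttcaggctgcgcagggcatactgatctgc
Myh4: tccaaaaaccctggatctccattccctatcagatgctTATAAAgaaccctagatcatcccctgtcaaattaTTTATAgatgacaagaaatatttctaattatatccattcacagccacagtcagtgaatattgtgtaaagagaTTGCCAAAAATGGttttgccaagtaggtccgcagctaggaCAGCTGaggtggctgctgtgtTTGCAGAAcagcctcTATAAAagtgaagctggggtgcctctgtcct
Acta1: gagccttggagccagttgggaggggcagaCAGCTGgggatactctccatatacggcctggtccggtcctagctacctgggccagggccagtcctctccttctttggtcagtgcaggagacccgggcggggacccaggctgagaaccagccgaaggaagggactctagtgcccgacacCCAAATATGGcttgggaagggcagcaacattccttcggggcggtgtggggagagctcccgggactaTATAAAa
Lep: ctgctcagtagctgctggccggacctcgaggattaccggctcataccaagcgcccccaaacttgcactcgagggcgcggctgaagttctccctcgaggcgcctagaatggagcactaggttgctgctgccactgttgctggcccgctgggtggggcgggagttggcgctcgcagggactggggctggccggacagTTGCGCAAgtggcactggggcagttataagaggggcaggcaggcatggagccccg
Plin1: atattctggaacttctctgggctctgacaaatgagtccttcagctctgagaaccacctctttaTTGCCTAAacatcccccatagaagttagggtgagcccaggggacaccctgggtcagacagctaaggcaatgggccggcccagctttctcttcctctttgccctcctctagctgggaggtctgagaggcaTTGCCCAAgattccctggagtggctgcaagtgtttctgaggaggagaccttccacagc
Ckb: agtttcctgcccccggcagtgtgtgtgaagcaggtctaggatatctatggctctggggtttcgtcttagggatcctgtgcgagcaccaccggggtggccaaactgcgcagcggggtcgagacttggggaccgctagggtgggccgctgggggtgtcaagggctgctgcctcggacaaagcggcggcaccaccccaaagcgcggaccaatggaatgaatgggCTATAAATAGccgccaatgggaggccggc

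The windows lie at chr2:67445752-67446001 (Xirp2, plus strand), chr2:69669870-69670119 (Klhl41, plus strand), chr11:67237562-67237811 (Myh4, plus strand), chr8:123894776-123895025 (Acta1, minus strand), chr6:29059971-29060220 (Lep, plus strand), chr7:79732777-79733026 (Plin1, minus strand) and chr12:111672339-111672588 (Ckb, minus strand). Shares were counted in RefSeq windows of 250 bases before to 50 after the start, which were held for 16781 genes. The MEF2 motif was in 25 of the 812 genes past 4-fold in muscle (3.08%), in 0 of 995 past 4-fold in fat and in 88 of all genes (0.524%). Among the 9496 windows of genes tested but not past 4-fold it was in 0.337%. CArG boxes were in 21 (2.59%) of the muscle genes, 12 (1.21%) of the fat genes, 1.48% of all and 1.285% of those not past 4-fold. CAGCTG, an E-box, was in 22.3% of the muscle genes, 18.1% of the fat genes, 15.7% of all and 14.8% of those not past 4-fold. TTGCNNAA, a form of the C/EBP motif, was in 9.61% of the muscle genes, 12.8% of the fat genes, 10.0% of all and 8.02% of those not past 4-fold. TATAAA was in 11.9%, 9.95%, 12.9% and 7.045% of the same sets, and DR1, a repeat read by nuclear receptors, in 3 of 812, 7 of 995, 0.375% of all and 0.2% of those not past 4-fold. A match is a description of these letters, not a bound site or a cause.

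**Figure D1:**
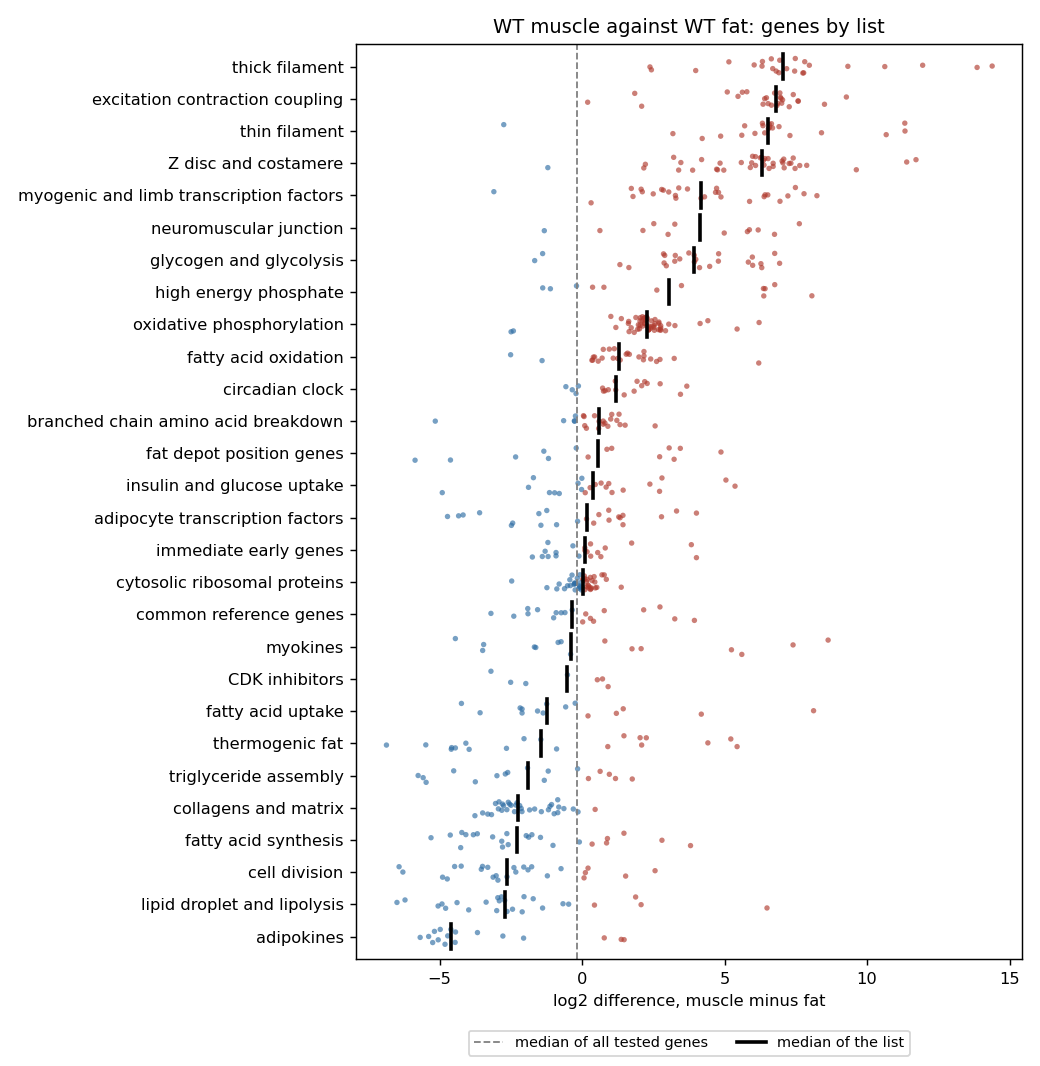
Log2 difference, muscle minus fat, of every tested gene (points, red above 0 and blue below) in each process list, with the list's median as a bar and the median of all tested genes as a dashed line. The 4 contractile lists have medians between 6.33 and 7.06, and the adipokine list has the lowest median, -4.60.

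Fibre type divided the muscle libraries. The slow and fast fibre lists were drawn up after their values were seen. Myh7, the slow heavy chain, was at 355, 2853, 3317 and 3269 CPM in muscle and 0, 0.0586, 0.238 and 0.123 CPM in fat, so muscle 1 was far below the other 3 and fat was near 0. The slow light chain Myl3 was at 495, 3135, 2418 and 2533 CPM in muscle, and the slow troponin I gene Tnni1 at 147, 792, 1488 and 1625 CPM. Slow genes as a group were lowest in muscle 1, while fast genes were not: Myh4 was highest there.

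Among the 4 adult heavy chains, compared per kilobase of exon, Myh4 made up 84.2% to 91.5% in muscle. Myh2, the chain of oxidative IIa fibres, and myoglobin (Mb), the oxygen store of oxidative fibres, were named after their values were seen. Myh2 made up 7.67% in muscle 2 and 2.99% to 3.53% in the other 3, and Mb was highest in the same library, at 4529, 7754, 3967 and 4500 CPM. Myh7 made up 0.253% in muscle 1 and 2.80% to 2.88% in the other 3.

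Slow sarcomere genes had the largest differences in favour of muscle. The 6 genes with the largest log2 differences on that side were Myh7 (14.39, SE 1.30), Myl3 (13.86, SE 1.38), Myl2 (11.95, SE 1.30), Ankrd2 (11.72, SE 0.72), Myh6 (11.52, SE 1.16) and Myoz2 (11.39, SE 0.61). All 6 are genes of slow or cardiac-type sarcomeres. Without fat 3, Myh7, Myl3, Myl2 and Myh6 stood at 15.31, 14.46, 12.81 and 13.34. Over the 10 slow genes the median was 11.00, against 6.58 over the 13 fast genes, and without fat 3 the medians were 11.57 and 8.90. The fast genes were the more abundant in muscle. Not all slow genes were low in fat: Tpm3, a tropomyosin that other cells also make and that was named after its values were seen, stood at 9.67% to 12.4% of its muscle level there.

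Fat 3 held Myh4 and other transcripts of fast fibres but little of the slow myosin chains. In fat 3 the 10 fibre markers stood at 1.75% to 4.99% of their mean muscle level, Myh4 at 3.18%. Myh7 stood at 0.00972% there, and Myl3 at 0.0121%. The IIx and IIa chains Myh1 and Myh2, which are also on the fast list, stood at 0.2645% and 0.1232% in fat 3, below the other fast genes, and Myh1, named after its values were seen, was highest in fat 1, at 1.42%. Myh4 made up 99.4% of the 4 adult chains per kilobase in fat 3, above its share in any muscle library. In fat 1, 2 and 4 the fibre markers stood at 0.0222% to 0.644%. Without fat 3 the muscle fibre list had a median of 9.22 in place of 6.47, and all 10 genes passed the 4-fold test either way. Without fat 1, muscle 1 or muscle 4 only 6 passed it, and in the Xist-marked libraries alone 0 did, while all 10 remained higher in muscle in each of these fits.

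**Figure D2:**
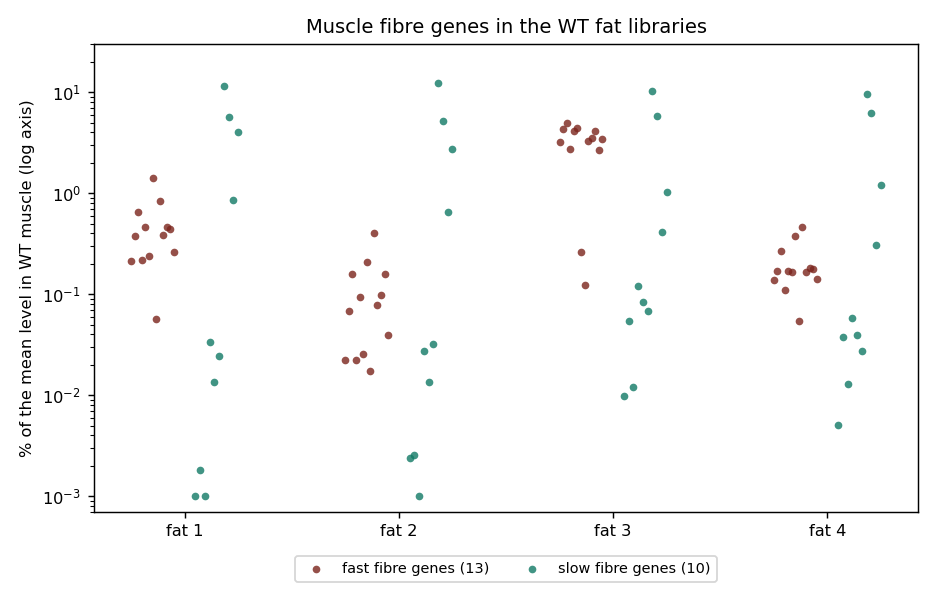
Level of 13 fast and 10 slow fibre genes in each fat library, as a percentage of the gene's mean level in WT muscle, on a log axis; values under 0.001% are drawn at that floor. Fat 3 holds Myh4 at 3.18% but Myh7 at 0.00972%, while Tpm3 and Atp2a2, which other cells also make, stand at 5.22% to 12.4% in all 4 fat libraries.

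Genes that break down glycogen and glucose were mostly higher in muscle. Of 26 genes of glycogen breakdown and glycolysis, 24 were higher in muscle and 22 passed the 4-fold test. Pygm, muscle glycogen phosphorylase, was at 11430 to 15590 CPM in muscle and 7.44 to 442 CPM in fat. Aldoa, aldolase A, was at 22280 to 36250 CPM in muscle and 905 to 1971 CPM in fat, a log2 difference of 4.48, SE 0.53. The genes higher in fat were Hk1, the hexokinase of most tissues (-1.38, SE 0.16), and Pgm1, a phosphoglucomutase (-1.66, SE 0.25).

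For the rapid regeneration of ATP, 8 of 12 genes were higher in muscle and 2 in fat. Ckm, muscle creatine kinase, was at 25840, 18370, 22230 and 22330 CPM in muscle and 70.2, 11.7, 943 and 39.5 CPM in fat. Its log2 difference was 6.38, SE 1.46 (edgeR adjusted p 0.0035), and 9.12 without fat 3. Adenylate kinase Ak1 and AMP deaminase Ampd1 differed by 6.42, SE 0.58 and 6.76, SE 1.39, and by 7.18 and 9.38 without fat 3. Ckb, the brain-type kinase, went the other way (-1.11, SE 0.19), as did adenylosuccinate synthase Adss (-1.38, SE 0.17).

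The respiratory chain was higher in muscle but less so than the filaments. Of 54 nuclear genes of oxidative phosphorylation 52 were higher in muscle, 49 still so on unscaled totals, with a median log2 difference of 2.28. Atp5b and Atp5a1, the catalytic core of ATP synthase, differed by 2.12, SE 0.30 and 2.68, SE 0.26. The 2 higher in fat were the non-muscle forms of cytochrome oxidase subunits, Cox6a1 (-2.49, SE 0.23) and Cox8a (-2.41, SE 0.24). The 15 genes of the mitochondrial genome searched for are not in the count table and were not analysed here.

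Fatty acid oxidation had 20 of 26 genes higher in muscle and 2 in fat, but on unscaled totals 11 and 8. Hadhb, of the mitochondrial trifunctional protein, and Crat, carnitine acetyltransferase, differed by 1.995, SE 0.19 and 2.61, SE 0.19. Pdk4, the kinase that turns off pyruvate dehydrogenase, was at 574, 1235, 839 and 1257 CPM in muscle and 97.8, 35.9, 210.4 and 69.8 CPM in fat. Cpt1a, which loads fatty acids for entry into mitochondria, was higher in fat, at 13.7, 23.6, 18.2 and 14.3 CPM in muscle and 119, 114, 96.5 and 67.2 CPM in fat (-2.51, SE 0.24). Its muscle form Cpt1b was listed at under 1 CPM in all 8 libraries, and the enolase gene Eno1 was likewise near 0, so how the counting treated these loci is unknown and no level is read from them.

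Regulators of muscle identity split the same way, with 27 of 29 transcription factors of the myogenic and limb list higher in muscle. Mef2c, which drives contractile genes, was at 664 to 906 CPM in muscle and 25.3 to 36.4 CPM in fat. Smyd1, a muscle methyltransferase, and Nfix, a factor of the fetal switch, differed by 6.42, SE 0.94 and 2.07, SE 0.17, Smyd1 by 8.04 without fat 3. Tbx5, known from forelimb and heart, was the member higher in fat, at no more than 1.57 CPM, and lost its call without muscle 2.

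At the nerve contact 11 of 12 genes were higher in muscle. Rapsn, which clusters acetylcholine receptors, the receptor subunit Chrnb1 and acetylcholinesterase Ache differed by 4.99, SE 0.47, 2.52, SE 0.31 and 3.02, SE 0.66, Rapsn by 5.59 without fat 3 and Ache by 3.98 without fat 4. Agrn, the nerve-derived organiser, was higher in fat (-1.33, SE 0.35), with overlap between muscle 1 and fat 2. On unscaled totals 9 were higher in muscle and 2 in fat.

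The secreted factors often called myokines were mixed: 7 of 15 were higher in muscle and 7 in fat, 5 and 8 on unscaled totals. Over all genes tested the shares were 33.7% and 40.4%. The 4-fold test was passed by 4 in muscle and 3 in fat, against 7.22% and 9.20% of all genes. Ostn (musclin), Fndc5 (the irisin precursor) and Mstn (myostatin) were higher in muscle by 8.63, SE 1.20, 5.61, SE 0.29 and 5.24, SE 0.55, Ostn by 10.83 without fat 3. Sparc, a matrix glycoprotein, was far higher in fat, at 407, 660.2, 308 and 285 CPM in muscle and 7004, 7859, 1639 and 2123 CPM in fat, and was lower in fat 3 and 4 than in fat 1 and 2. Fgf21 was also higher in fat (-4.45, SE 0.79), though at no more than 3.89 CPM.

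On the fat side the adipokines, the hormones of fat, had the lowest median among the lists of cell processes. Of 17 adipokines tested 14 were higher in fat, 12 past 4-fold, and the median log2 difference was -4.60. Leptin (Lep), the satiety hormone, was at 3664, 4196, 951 and 931 CPM in fat and 63.1, 151, 69.0 and 26.1 CPM in muscle. The groups did not overlap, and fat 1 and 2 were far above fat 3 and 4. The keratins of epithelium, near 0 in fat 1 and 2 and high in fat 3 and 4, moved with that split. So did the Y-linked and Xist marks, and the part of either was not tested and cannot be told apart. The log2 difference of Lep was -4.98, SE 0.77 with an edgeR adjusted p of 0.00036.

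Adiponectin (Adipoq), which sensitises tissues to insulin, was at 2388, 2525, 1009 and 1551 CPM in fat and 48.7, 109, 116 and 33.5 CPM in muscle (-4.60, SE 0.53). Adipsin (Cfd), a complement protease, was at 1666, 1496, 1965 and 2702 CPM in fat and was highest in fat 4 (-4.45, SE 0.61). Resistin (Retn) was the most even of the group across fat, at 342, 329, 300.1 and 397 CPM (-5.38, SE 0.51). Nampt, an enzyme of NAD synthesis, and Apod, a lipid carrier, were the 2 higher in muscle (1.48, SE 0.17 and 0.78, SE 0.30), of which Apod turned to -0.42 on unscaled totals and lost its call when any of 6 of the 8 libraries was left out (edgeR adjusted p 0.065 to 0.11).

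Lipid droplet and lipolysis genes were higher in fat in 20 of 25 cases, 12 past 4-fold. Plin1, the perilipin that coats the adipocyte droplet, was at 1317, 1256, 681 and 865 CPM in fat and 17.1, 46.1, 46.5 and 14.5 CPM in muscle, a log2 difference of -5.05, SE 0.51 (edgeR adjusted p 2.6e-05). Cidec, which fuses droplets, differed by -4.79, SE 0.57, and Cav1, of the caveolae, by -2.72, SE 0.37. Among the 3 higher in muscle were Fitm1, a droplet-budding protein of muscle (6.49, SE 0.76, 7.58 without fat 3), and Plin5, which tethers droplets to mitochondria (1.88, SE 0.36).

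Uptake of fatty acids had 9 of 15 genes higher in fat and 3 in muscle. Fabp4, the fatty acid binding protein of adipocytes, was at 9944, 10880, 5074 and 4720 CPM in fat and 335, 489, 493 and 313 CPM in muscle. Lpl, which frees fatty acids from lipoproteins, was at 8161, 7672, 2069 and 3926 CPM in fat and 757, 1753, 1380 and 1188 CPM in muscle, so fat 3 and muscle 2 differed by little. The transporter Cd36 differed by -2.17, SE 0.37. The heart and muscle binding protein Fabp3 ran the other way, at 937, 1560, 1267 and 1237 CPM in muscle and 5.74, 1.97, 8.62 and 1.48 CPM in fat.

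Fatty acid synthesis had 17 of 24 genes higher in fat and 4 in muscle. Fasn, fatty acid synthase, was at 1360, 1309, 259.5 and 3024 CPM in fat and 33.3, 72.6, 28.2 and 17.1 CPM in muscle (-5.30, SE 0.80, edgeR adjusted p 0.00032). Its fat libraries spread widely, with fat 3 lowest and fat 4 highest, and the difference was -4.69 without fat 4. Scd1, the desaturase that makes oleate, was at 3217, 1692, 4044 and 9572 CPM in fat and was likewise highest in fat 4. The 2 strongest of the 4 genes higher in muscle were Acacb, the mitochondrial acetyl-CoA carboxylase (3.81, SE 0.18), and Slc2a4, the insulin-responsive glucose transporter (2.80, SE 0.18).

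Without fat 3 the genes higher in fat numbered 15 of 18 adipokines, 21 of 25 droplet genes, 9 of 15 uptake genes and 17 of 24 synthesis genes.

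For the assembly of triglyceride 11 of 17 genes were higher in fat and 4 in muscle, 13 and 1 on unscaled totals. Pck1, which feeds glycerol synthesis, was at 1246, 758, 1564 and 866 CPM in fat and 12.7, 12.4, 48.3 and 19.8 CPM in muscle (-5.58, SE 0.56, -6.21 without muscle 3). Dgat2, the last step of triglyceride synthesis, and Pcx, pyruvate carboxylase, differed by -3.75, SE 0.69 and -1.33, SE 0.37, Dgat2 by -4.41 without muscle 2. Agpat1 and Gpam, acyltransferases of the same path, were higher in muscle (1.76, SE 0.12 and 1.17, SE 0.34), although Gpam was at -0.02 on unscaled totals. Gpd1, which makes glycerol phosphate, did not pass, at 1377, 1022, 1181 and 1095 CPM in muscle and 1503, 1480, 286 and 733 CPM in fat.

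Transcription factors known from adipocytes were mixed: 10 of 23 were higher in fat and 9 in muscle, 12 and 3 on unscaled totals. Over all genes tested 40.4% were higher in fat and 33.7% in muscle. The 4-fold test was passed by 6 in fat and 3 in muscle, against 9.20% and 7.22% of all genes. Cebpa, a master factor of fat cells, was at 606, 498, 330.2 and 428 CPM in fat and 14.4, 25.8, 35.4 and 17.0 CPM in muscle. Srebf1 and Thrsp, which respond to feeding and insulin, differed by -1.44, SE 0.19 and -3.60, SE 0.51. Ppargc1a, the coactivator of mitochondrial genes, and the orphan receptor Nr4a1 were higher in muscle (3.32, SE 0.54 and 4.01, SE 0.49), Ppargc1a by 2.70 without muscle 3 and Nr4a1 by 4.70 without fat 3.

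Genes known from brown and beige fat had 11 of 19 members higher in fat and 6 in muscle. Slc36a2, an amino acid transporter, and Kcnk3, a potassium channel, differed by -4.59, SE 0.58 and -4.08, SE 0.44, Slc36a2 by -5.19 without muscle 2. Cox7a1 and Cox8b, used as brown fat markers, were higher in muscle, where their products are also part of cytochrome oxidase (5.44, SE 0.43 and 4.41, SE 0.32). Ucp1, the uncoupling protein of brown fat, named after its values were seen, was low in fat at 5.46, 7.11, 30.2 and 5.48 CPM, highest in fat 3.

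Insulin signalling had 11 of 22 genes higher in muscle and 5 in fat, 5 and 14 on unscaled totals. Over all genes tested 33.7% were higher in muscle and 40.4% in fat. On unscaled totals these were 1980 and 10708 of all 15198. Prkag3 and Prkaa2, subunits of the AMP-activated kinase of muscle, were higher in muscle (5.37, SE 0.38 and 5.05, SE 0.31). Tusc5, a trafficking protein of the insulin-responsive transporter in fat, was at 622, 556, 278 and 223 CPM in fat and 11.9, 23.1, 14.3 and 6.64 CPM in muscle. Breakdown of branched chain amino acids had 13 of 23 genes higher in muscle and 2 in fat. On unscaled totals these became 1 and 16, to be read against the same shift over all genes. Its clearest members were Bckdk, the kinase that restrains the pathway, in muscle (2.56, SE 0.12), and Bcat1 in fat (-5.15, SE 0.85, -4.56 without fat 1).

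Collagens and matrix genes were higher in fat in 29 of 34 cases and in all 34 on unscaled totals. The 8 that passed the 4-fold test became 13 without fat 3, 3 without fat 1 or fat 2, 2 without muscle 1 or muscle 3 and 1 without muscle 4. Postn, periostin, was at 108, 166, 209 and 308 CPM in fat and 12.7, 17.0, 21.9 and 6.94 CPM in muscle. Lamb2, a laminin of the synaptic and muscle basement membrane, was the sole member higher in muscle (0.46, SE 0.14), a direction that turned to -0.70 on unscaled totals.

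**Figure D3:**
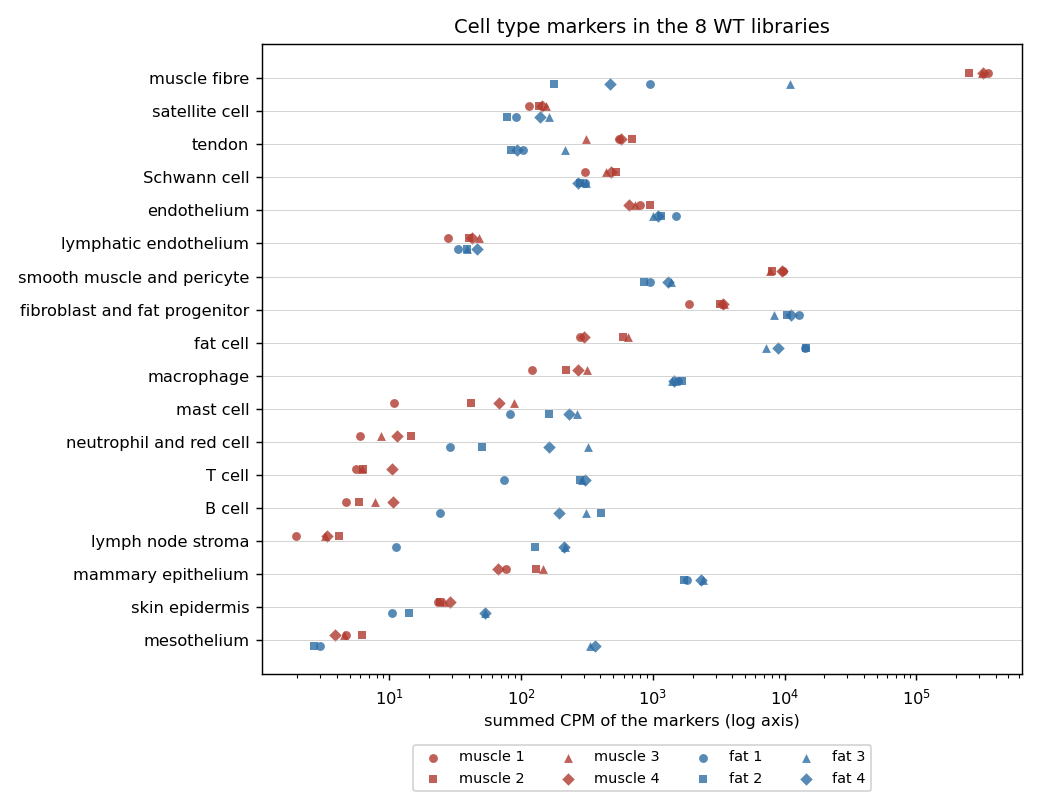
Summed CPM of each cell type's markers in the 8 libraries, on a log axis; Muscle fibre sums are 250600 to 348900 CPM in muscle and 178 to 10950 CPM in fat, and the mesothelium list, through Krt19, stands at 333.6 and 362 CPM in fat 3 and 4 but at 2.96 and 2.68 CPM in fat 1 and 2.

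Macrophage and lymphocyte markers were higher in fat. All 17 macrophage, 11 B cell and 15 T cell genes tested were higher there, and 8, 10 and 14 passed the 4-fold test. Of the mast cell genes 2 of 9 were higher in fat, against 40.4% of all genes. That count became 4 without muscle 1 or muscle 3, 3 without fat 1 and 1 without fat 2 or muscle 4. Of the neutrophil and red cell genes 4 of 6 were higher in fat, and the remainder of either list did not pass. These 4 became 2 without fat 3, fat 4 or any of muscle 1 to 3, and 5 without fat 1 or muscle 4. Cd79a, a chain of the B cell receptor complex, was at 2.67, 73.0, 53.7 and 32.7 CPM in fat and at no more than 0.745 CPM in muscle. Fat 1 was lowest in it, and in the T cell receptor chain Cd3g, at 4.73, 16.5, 20.7 and 24.4 CPM.

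The macrophage markers were more even across fat: Emr1, the F4/80 antigen, was at 44.7, 41.9, 24.1 and 32.2 CPM in fat and 1.88, 4.20, 6.10 and 4.17 CPM in muscle. Markers of lymph node stroma were lowest in fat 1, as the B cell genes were, but the order of the other 3 differed. Glycam1, made by the high endothelial venules of lymph nodes, was at 0.550, 12.6, 99.2 and 147 CPM in fat. In the summed list fat 1 stood at 11.2 CPM against 128 to 214 CPM in the other 3. The defining chemokine Ccl21a was listed at 0 in all 8 libraries. The part of lymph node in the lymphocyte counts was not tested.

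Epithelial markers were high in fat 3 and 4 alone. The mammary list summed to 1831, 1709, 2384 and 2308 CPM in fat and to no more than 146 CPM in muscle. In fat 1 and 2 nearly all of that was Trf, transferrin, which other cells also make and which was named after its values were seen, at 1820, 1699, 906 and 986 CPM in fat. Of the 18 genes listed 7 had enough counts to test, and 6 of these were higher in fat, 4 past 4-fold. Those 4 became 1 or 2 when fat 3, fat 4 or a muscle library was left out and 8 without fat 1 or fat 2, with more genes tested. Krt8, a keratin of simple epithelia, was at 0.289, 0.195, 320.2 and 284 CPM in fat and 0.550, 0.309, 0.152 and 0.271 CPM in muscle. The log2 difference of -8.86, SE 2.39 (edgeR adjusted p 0.0082) rested on those libraries: it was -8.11 without fat 3, and with libraries 1 and 2 of each tissue alone it was 0.80 (adjusted p 0.3). The prolactin receptor Prlr, the adhesion molecule Epcam and the milk protein lactoferrin Ltf showed the same libraries, at 2.04, 2.71, 176 and 244, 0.138, 0.781, 138 and 103 and 0.220, 0.859, 275 and 138 CPM in fat. Of the milk caseins named after their values were seen, Csn3 was at 0.0413, 0, 72.2 and 42.2 CPM and Csn2 at 0, 0.176, 2.09 and 0.185 CPM. Keratins of hair and outer skin (Krt25, Krt1) were at no more than 0.772 CPM. The skin epidermis list they belong to summed to 10.4, 14.2, 53.6 and 52.9 CPM in fat and to 23.5 to 29.0 CPM in muscle. Of its 5 tested genes 3 were higher in fat, 1 past 4-fold. Those 3 became 2 without fat 3 or muscle 1 and 4 without fat 1 or fat 2.

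Fibroblast markers were higher in fat in 10 of 13 cases and endothelial markers in 8 of 13, none past 4-fold. On unscaled totals these were 12 and 13, with 5 and 1 past 4-fold, and without muscle 4 the endothelial count was 5. Pdgfra, of fibroblasts and fat progenitors, was at 22.0 to 35.9 CPM in muscle and 47.0 to 91.9 CPM in fat. Tendon genes were higher in muscle in 8 of 11 cases, tenomodulin (Tnmd) at 4.21 to 12.1 CPM there. Schwann cell genes were higher in muscle in 8 of 12 cases but in only 2 on unscaled totals. Of 9 satellite cell markers, of muscle stem cells, 6 were higher in muscle, 1 in fat and 2 did not pass, and their sum was 114.5 to 155 CPM in muscle and 78.3 to 161.5 CPM in fat. Pax7, the defining factor, was at 2.12 to 4.20 CPM there and gave 2 counts in all 4 fat libraries together.

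Mesothelial markers, of the lining of abdominal organs and of the fat around them, had 2 of 4 tested genes higher in fat and 0 in muscle, of 8 listed. The list summed to 3.86 to 6.15 CPM in muscle and to 2.96, 2.68, 333.6 and 362 CPM in fat. Nearly all of that sum in fat 3 and 4 was Krt19, a keratin that other epithelia also make, at 0.812, 0.684, 325.7 and 354.7 CPM. The defining genes Wt1 and Upk3b were at no more than 0.234 CPM in fat.

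Some position genes of the body axis differed between the tissues. Hoxc8 was named by the rule for the list of depot position genes, and the other Hox genes after their values were seen. Hoxc10, known from hind limb and lower trunk, was at 163, 134, 129 and 149.5 CPM in muscle and 19.7, 20.5, 11.0 and 9.96 CPM in fat. Hoxc8 ran the other way, at 1.29, 1.13, 0.834 and 0.474 CPM in muscle and 78.8, 74.8, 25.4 and 40.1 CPM in fat (-5.86, SE 0.48).

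Hox genes set position along the body, the higher numbers towards the tail and the tip of the limb. Of 31 tested 11 were higher in muscle and 14 in fat, 8 and 18 on unscaled totals. The scaled counts are near the shares over all genes tested, 33.7% higher in muscle and 40.4% in fat. Numbers 10 to 13 that passed were all higher in muscle: Hoxa10, Hoxa11, Hoxa13, Hoxc10, Hoxc11 and Hoxd10, with log2 differences of 1.04, 6.28, 7.48, 3.23, 6.09 and 3.45. Hoxa13 gave 5 counts in all fat libraries together, and its difference was 10.46 without fat 1, as that of Hoxa11 was 7.30 without fat 2.

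All 8 tested members of the B cluster, Hoxb2 to Hoxb9, were higher in fat, by -1.05 to -3.15, although Hoxb9 lost its call when any of 6 of the 8 libraries was left out (edgeR adjusted p 0.053 to 0.09). Neighbours in the C cluster went opposite ways: Hoxc8 was higher in fat, and Hoxc9 (0.87, SE 0.21) and Hoxc10 in muscle. Hoxa10, Hoxc4 and Hoxc9 turned sign on unscaled totals, to -0.08, -0.07 and -0.28.

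**Figure D4:**
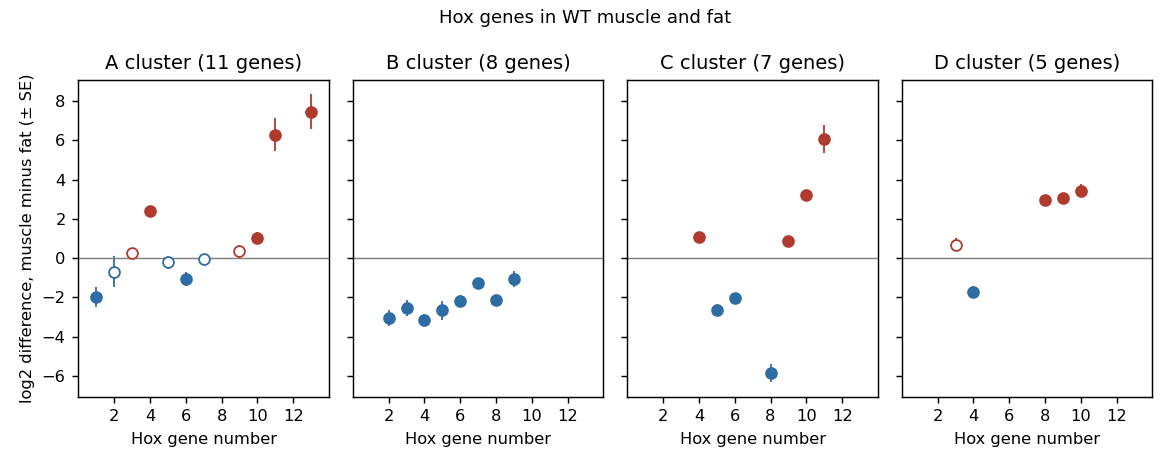
Log2 difference, muscle minus fat, of the 31 tested Hox genes by number in the A, B, C and D clusters, with SE bars; filled points passed the test, red above 0 and blue below. All 8 B cluster points lie below 0 and the tested genes numbered 10 to 13 lie above it.

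Paralogues changed partners between the tissues. Compared per kilobase of exon, the leading member differed between muscle and fat in 15 of 28 families. It differed in 19 when fat 3, highest in muscle transcripts, was left out. The families were picked with earlier results of these data known, so these counts have no share over all genes to be set against. The enolase and Cpt1 families, with members whose levels are not read, were not counted. Actin passed from Acta1 at 38020 ± 4279 CPM per kilobase (mean ± SD, n = 4) in muscle to Actb at 422 ± 47.8 in fat. Elongation factor 1 alpha passed from Eef1a2 (1413 ± 96.2 in muscle) to Eef1a1 (1493 ± 244 in fat). Ribosomal protein L3 passed from Rpl3l (502 ± 50.8) to Rpl3 (184 ± 51.2).

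The same held for cytochrome oxidase subunits, where Cox6a2, Cox7a1 and Cox8b led in muscle and Cox6a1, Cox7a2 and Cox8a in fat. Adenine nucleotide translocase passed from Slc25a4 (2940 ± 187) to Slc25a5 (153 ± 50.2), and glycogen phosphorylase from Pygm to the brain form Pygb (39.5 ± 8.27 in fat). The families that joined without fat 3 were phosphofructokinase, cytosolic creatine kinase, the sarcoplasmic calcium pump and adenylosuccinate synthase, with Pfkl, Ckb, Atp2a3 and Adss leading in fat. Aldolase, hexokinase, lactate dehydrogenase and lipin kept Aldoa, Hk2, Ldha and Lpin1 in either tissue.

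**Figure D5:**
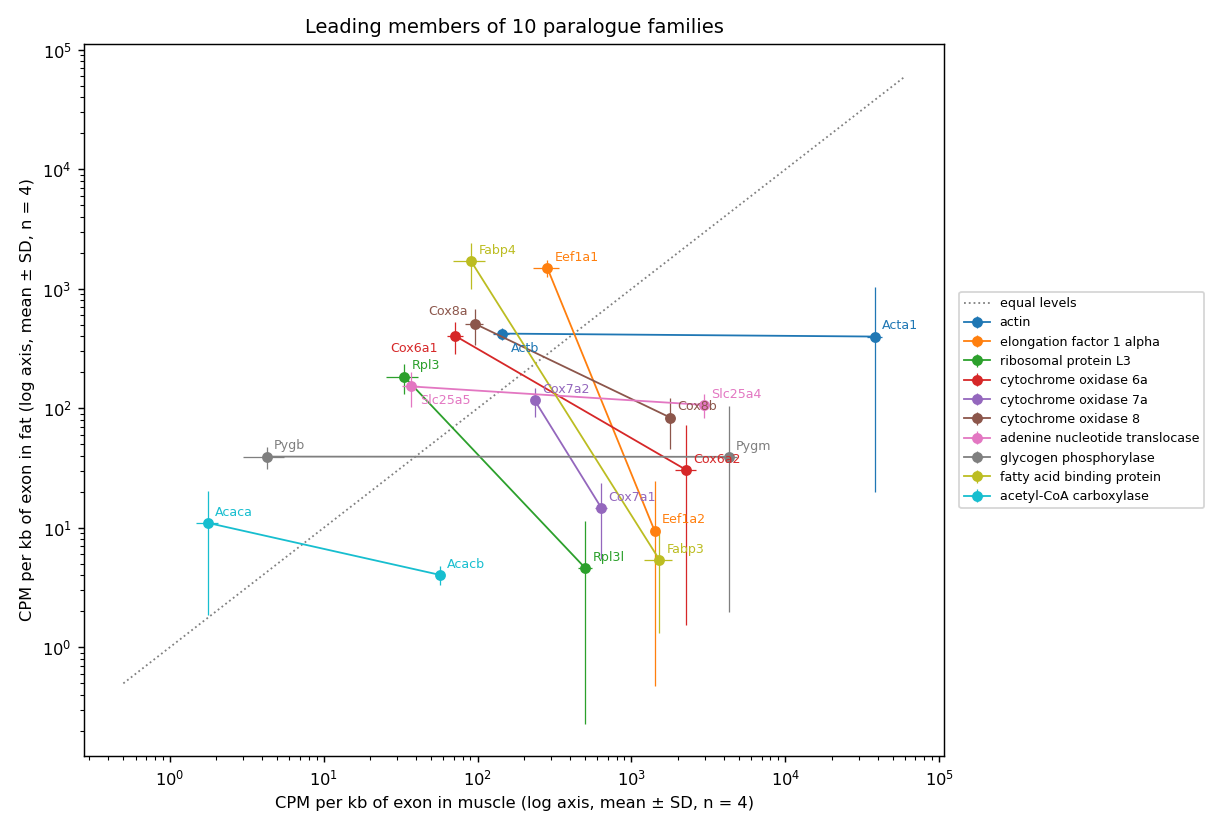
Mean CPM per kilobase of exon in muscle (x axis) and fat (y axis), on log axes, of the members that lead in either tissue, for 10 paralogue families joined by lines; bars are SD over 4 libraries, and a lower bar that would pass 0 is drawn short of it. Acta1 lies at the far right and Fabp4 at the top, and every family shown except cytochrome oxidase 7a crosses the line of equal levels.

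Genes of cell division were low in muscle. Of 25, 20 were higher in fat and 2 in muscle. Ccnb1 and Bub1, which act in mitosis, gave 5 and 2 counts in all 4 muscle libraries, and 2.42 to 5.57 and 1.11 to 2.07 CPM in fat. Bub1b itself was at 1.39, 1.29, 1.06 and 1.12 CPM in muscle and 4.40, 7.07, 6.11 and 6.78 CPM in fat. The groups did not overlap, and the log2 difference was -2.33, SE 0.24 with an edgeR adjusted p of 2.9e-05.

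Aurka and Pttg1, a mitotic kinase and securin, were higher in muscle (2.56, SE 0.19 and 1.53, SE 0.20). Cdkn2a, the locus of p16 and p19, was at 0, 0.154, 0.152 and 0.0677 CPM in muscle and 0.619, 1.17, 1.10 and 0.649 CPM in fat (-3.20, SE 0.65, edgeR adjusted p 0.0018). Cdkn2c was higher in fat by a similar size (-2.51, SE 0.31), while Cdkn1c and Cdkn2d were higher in muscle by 0.91 and 0.72, which became -0.29 and -0.46 on unscaled totals. On that scale 5 of the 7 inhibitors tested were higher in fat and 0 in muscle.

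Clock genes were higher in muscle in 11 of 19 cases and in fat in 0, although on unscaled totals 7 and 4. Ciart, a repressor of the clock, differed by 3.67, SE 0.30. Immediate early genes were mixed, 5 of 20 higher in muscle and 4 in fat, and 2 rather than 4 in fat without fat 3 or muscle 1. On unscaled totals, where 10708 of all 15198 genes were higher in fat, the counts were 2 and 14. Nr4a3 was higher in muscle (3.83, SE 0.79, 2.96 without muscle 3), and Egr1 and Zfp36 in fat (-1.74, SE 0.59 and -1.40, SE 0.29), Egr1 losing its call without fat 3 or muscle 1 (edgeR adjusted p 0.065 and 0.058). The hour of death was not given.

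Cytosolic ribosomal proteins were the flattest list, 35 of 46 not past the test and a median of 0.03, but 42 were higher in fat on unscaled totals. Reference genes in common use differed about as often as all genes: of 19, 5 were higher in muscle and 9 in fat, 4 and 14 on unscaled totals. Over all genes tested 33.7% were higher in muscle and 40.4% in fat. Gapdh, the glycolytic enzyme, was at 11650, 9244, 13280 and 13940 CPM in muscle and 692, 917, 989 and 528 CPM in fat (3.94, SE 0.40). Beta actin (Actb) and B2m differed by -1.56, SE 0.18 and -3.20, SE 0.34, and Rplp0 by 0.78, SE 0.25, which turned to -0.42 on unscaled totals and lost its call without muscle 4 (edgeR adjusted p 0.055). Polr2a, Chd4, Snrnp200, Cnot1 and Glt25d1 were the steadiest genes above 100 CPM on scaled totals, by which they were picked. Polr2a ran from 109 to 124 CPM in muscle and from 104 to 109.8 CPM in fat. On unscaled totals the log2 differences of these genes were -1.04, -1.22, -1.06, -1.25 and -1.17.

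The same contrast was run in the mutants, which share no sample with WT. In BubR1H/L1002P tissue 11710 of 15578 genes were called, 5328 of them higher in muscle, and in BubR1H/H tissue 11093 of 15869, 5159 in muscle. Of the WT genes past 4-fold in muscle that were tested there, 1073 of 1077 were higher in muscle in BubR1H/L1002P and 1059 of 1070 in BubR1H/H. For fat the counts were 1333 of 1366 and 1309 of 1375. Of all WT genes higher in muscle, 4411 of 5094 and 4386 of 5082 were called the same way. In the opposite direction were 35 and 19. Of all WT genes higher in fat, 4865 of 6048 and 4679 of 6074 were called the same way, and 39 and 41 the opposite way.

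Single members are set side by side. Myh4 differed by 6.81 in WT, 8.19 in BubR1H/L1002P and 6.67 in BubR1H/H, Plin1 by -5.05, -4.04 and -3.91, and Bub1b by -2.33, -5.13 and -3.47. Mest, an imprinted gene of expanding fat cells, was at 409, 472, 201 and 68.9 CPM in WT fat and differed by -5.52, -2.37 and -0.60. Krt8 differed by -8.86, -1.60 and -3.04, and Xist marked 2 of 4 WT fat libraries but 1 of 4 in either mutant. Pttg1 was the one gene named here called in opposite directions, by 1.53, 1.501 and -1.17. Scaled over all 23 libraries, it was at 44.1 to 63.9 CPM in WT muscle but at 1.78, 2.15 and 2.79 CPM in BubR1H/H muscle and 3.68 to 6.11 CPM in BubR1H/H fat. Differences between genotypes in these values were not tested.

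Some genes varied most between libraries of 1 tissue. Beside Xist and the Y-linked genes, the most variable in fat were the epithelial group, led by Fcgbp at 0.303, 0.644, 923 and 431 CPM. In muscle they included the slow genes Sln, at 3.11, 23.1, 69.9 and 92.5 CPM, and the transporters Slc15a5 and Slc30a2, at 29.5, 18.1, 0.152 and 0.237 and 36.3, 32.5, 3.15 and 5.08 CPM, high in the 2 libraries with Y-linked transcripts. Haptoglobin (Hp), an acute phase protein also made by fat cells, was at 3671, 5358, 478 and 495 CPM in fat and 118, 484, 53.4 and 26.5 CPM in muscle, high in fat 1 and 2 and, within muscle, in muscle 2.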

How the data were processed

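The authors deposited 1 table of raw counts per gene for 23 libraries of muscle and fat RNA. Per the labels' protocols, poly(A) libraries were made with a kit that keeps no strand. Per the submitters' processing notes, TopHat2 2.0.14, Bowtie2 2.2.6 and featureCounts 1.4.6 were used with mm10. The annotation and the handling of shared reads are not given in the sources used here, so near-identical paralogues and overlapping genes are uncertain.

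The 8 WT libraries held 37631066 to 58828571 counts. Of 24062 genes, 4444 had no count in them. Genes passed edgeR's filterByExpr by tissue and were tested with edgeR 4.0.16 (quasi-likelihood, TMM) in R 4.3.3, with glmTreat as the 4-fold test. The groups are the labels' own, and each fit held 1 genotype. Values printed per gene are CPM on TMM-scaled totals, for levels between genes per kilobase of the GENCODE M21 exon union (23709 genes matched). A group total under 3 counts is treated as the floor. The scripts were tested on simulated data. Both simulated tissues had the fat levels, except for a small set of genes changed evenly in both directions. That test therefore could not judge the scaling between tissues that differ as widely as these. Nothing states that replicates are separate mice, so p-values measure the spread between these samples.

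Members and lists were chosen with earlier results of these data known. Named genes are the 12 most abundant per tissue among those past 4-fold and at least 32-fold apart, the 6 largest differences each way, up to 3 members of each list in its direction and 2 against it, all paralogue family and reference genes, Bub1b and Cdkn2a, the 10 most variable per tissue above 10 CPM, the 5 steadiest above 100 CPM and the first 4 markers of each cell type. Of these the text gives a selection, and some genes are not reported here. Alternatives were DESeq2 1.42.0, voom in limma 3.58.1, other scalings and filters, thinning, all 23 libraries in 1 fit, a covariate for the Xist or Y-linked mark, a replicate block and leaving out each library. Chosen after seeing the data were fits within each mark, without fat 3 and muscle 1 together, and the slow fibre, fast fibre and Hox lists.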

Additional observations from a re-analysis of the deposited data

Results flagged for a closer look

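In each group of 4 libraries, the highest or lowest was checked for standing apart from the other 3 by Dixon's 95% critical value for 4 samples. Chance marks about 1 in 20 groups. Of 130 groups checked 20 were past it (15.4%), of which 10 were in fat 3 and 6 in muscle 2. A group counted in 1 library alone is past it at any level. This was so for Glycam1, Bub1 and Fcgbp in muscle 2, Csn3 in muscle 3 and Pax7 in fat 3. The fat 3 groups include the muscle fibre sum and its members Myh4, Acta1, Actn3, Atp2a1, Pygm and Ckm, which are not independent. The share past it therefore cannot be compared with the chance rate. The causes were not tested.

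Fat 3 was highest for the sum of muscle fibre markers (10950 CPM, against 178 to 951 in the other 3), and for single fibre genes. These were Myh4 (2343 CPM), Acta1 (2066 CPM), Actn3 (653.3 CPM), Atp2a1 (1440 CPM), Pygm (441.5 CPM) and Ckm (943.1 CPM). The same library was highest for Ucp1, the uncoupling protein of brown fat (30.22 CPM, against 5.46 to 7.11), and for Csn2, a milk casein (2.091 CPM, against 0 to 0.185). Pax7, the satellite cell factor, stood at 0.0207 CPM there and at 0 in the other fat libraries. Bub1 was highest in fat 2, at 2.07 CPM against 1.11 to 1.24.

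Muscle 2 was lowest for the calcium pump Atp2a1 (41740 CPM, against 55600 to 56140) and highest for myoglobin Mb (7754 CPM, against 3967 to 4529) and Pax7 (4.196 CPM, against 2.12 to 2.47). Traces set it apart for Glycam1 and Bub1 (0.05148 CPM each) and for Fcgbp (0.3604 CPM), all at 0 in the other 3. Muscle 1 was lowest for the slow myosin Myh7 (355 CPM, against 2853 to 3317) and for the fibroblast receptor Pdgfra (22.0 CPM, against 33.8 to 35.9). Among the muscle libraries, Csn3 was counted only in muscle 3 (0.0379 CPM).

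Pttg1, securin, was higher in muscle in WT but higher in fat in BubR1H/H, where the log2 difference was -1.17. In each genotype the 2 tissues did not overlap. The difference between genotypes was not tested.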

How the results depend on the processing

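The count of genes differing between WT muscle and fat, 11269, stayed within 1.5 times under every alternative run, from 8962 with a filter at 1 CPM to 12688 on unscaled library totals. The count past 4-fold, 2496, moved further in 3 of them: 4336 on library totals, 1511 with voom and 1386 with the stricter filter. On library totals 15.6% of the genes called were higher in muscle, against 45.5% with TMM. Leaving out 1 library at a time gave 10721 to 11097 called and 2114 to 2492 past 4-fold.

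The 4 same-numbered pairs of libraries had deviations correlated at 0.136, 0.108, 0.008 and 0.049, so the numbers were not taken to pair mice. With the number as a replicate block 10597 genes were called in WT, 11459 in BubR1H/L1002P and 9481 in BubR1H/H. Not every library correlated best with its own number.

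Of 169 genes named with a test, 130 were tested in all 22 settings, and 103 of these kept direction and side in each. Of the 169, 17 reversed in 1 or more. On library totals the log2 differences became -0.42 for Apod, -0.29 for Cdkn1c, -0.46 for Cdkn2d, -0.14 for Cox7a2, -0.95 for Fkbp1a, -1.17 for Glt25d1, -0.02 for Gpam, -0.08 for Hoxa10, -0.07 for Hoxc4, -0.28 for Hoxc9, -0.70 for Lamb2, -0.17 for Lpin1, -1.04 for Polr2a, -0.42 for Rplp0 and -1.06 for Snrnp200. Glt25d1 also turned with upper quartile scaling, to -0.29. In the Y-marked libraries alone Krt8 was at 0.80 and Krt19 at 1.09. Library totals shift the median of all genes by construction, and for the other changes the cause was not tested. Depth limits genes under 3 counts in a tissue, such as Bub1 in muscle.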
